A study of Mus musculus with 21 samples.

Results

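Cytochrome P450 genes of families 1 to 3 were taken as every gene name on the array made of Cyp, the digit 1, 2 or 3, a subfamily letter and a number. This rule found 48 of 27373 gene names, measured by 72 of 41174 probes. The members fall into 15 subfamilies, of which the largest are *Cyp2c* with 11 members, *Cyp2d* with 7, *Cyp3a* with 6 and *Cyp2b* and *Cyp2j* with 5 each. The arrays compared JNK1 knock-out (KO) mice with wild-type (WT) mice in skin (4 KO and 3 WT arrays), liver (3 KO and 3 WT) and epididymal fat (4 KO and 4 WT). All mice were 45-week-old males on a C57Bl6/J background, and both genotypes had been fed a high fat diet from 5 to 44 weeks of age, so no group on a standard diet was compared. The labels do not say which exons the *Mapk8* (JNK1) mutation removes, whether the KO and WT mice were littermates, or whether arrays of 1 group came from separate mice. The p-values therefore measure only the spread between these samples.

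Cytochromes P450 are haem enzymes of the endoplasmic reticulum that insert an oxygen atom into a substrate, using electrons passed on by the reductase Por. In mice, families 1 to 3 handle drugs, plant compounds, combustion products, steroids and fatty acids, and hepatocytes are their main site. Much of their activity is set by transcription, through the aryl hydrocarbon receptor for *Cyp1* genes, the nuclear receptors CAR and PXR for many *Cyp2b*, *Cyp2c* and *Cyp3a* genes, and liver factors such as HNF4A and C/EBP proteins. In skin, a smaller set is known from keratinocytes and sebaceous glands, where P450 products of arachidonic acid have been described.

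Levels are given as log2 of the Cy3 intensity relative to each array's own 75th percentile, so 0 is the intensity that 75% of probes lie below. A level of 1 probe cannot be set against that of another, so only arrays are compared. Arrays had 38.9% to 57.2% of probes well above background. For fat WT 2 no scanner values were used, since that file correlated at 0.861 to 0.912 with skin arrays and at 0.719 to 0.760 with fat arrays. The authors' deposited value table holds a fat WT 2 column that correlated at 0.953 to 0.980 with the other fat columns. It is used beside the comparison of KO with WT in fat. The tissue comparisons rest on the other WT fat arrays unless the value table is named. *Mapk8* lay at -4.12 ± 0.79 in KO livers and -1.76 ± 0.20 in WT livers (SD, n = 3 each). Its liver difference of -2.37 did not pass the test used here (adjusted p = 0.216 by limma). In fat *Mapk8* lay at -3.30 ± 0.28 in KO (n = 4) and -0.92 ± 0.11 in WT (n = 3). That difference of -2.38 passed (adjusted p = 0.0167 by limma). In skin *Mapk8* lay from -5.24 to -4.17 in KO and from -4.14 to -2.16 in WT. There 0 of 4 KO and 2 of 3 WT arrays were above background, too few for *Mapk8* to be tested. Each list of defining markers had its highest mean level in its own tissue: 11 keratinocyte markers lay at 6.45 to 7.39 in skin and at -0.94 or less elsewhere, and 10 adipocyte markers at 5.58 or more in fat, 4.26 to 5.42 in skin and -1.84 to -0.90 in liver (the 12 hepatocyte markers are described with the tissue comparisons). Detection alone did not separate the tissues, since 11 or 12 of 12 hepatocyte and 10 of 10 adipocyte markers were well above background on every skin array.

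Transcripts of 41 of the 48 members were detected in liver, 34 in skin and 25 in fat, where detected means that 3 or more arrays of the tissue had the probe well above background. Of these, 25 were detected in all 3 tissues and 10 in liver alone. Only *Cyp2b10*, *Cyp2b19* and *Cyp2b23* were detected in skin and in no other tissue. A further 4 were detected in none: *Cyp1a1*, the aryl hydrocarbon receptor's best-known target, and *Cyp2c66*, *Cyp2j11* and *Cyp2w1*. Detection was widest in liver in these animals, with 39 members above background on all 6 arrays, against 28 on all 7 skin arrays and 15 on all 7 fat arrays. In bulk tissue, fewer cells of a type and less RNA per cell cannot be told apart.

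**Figure D1:**
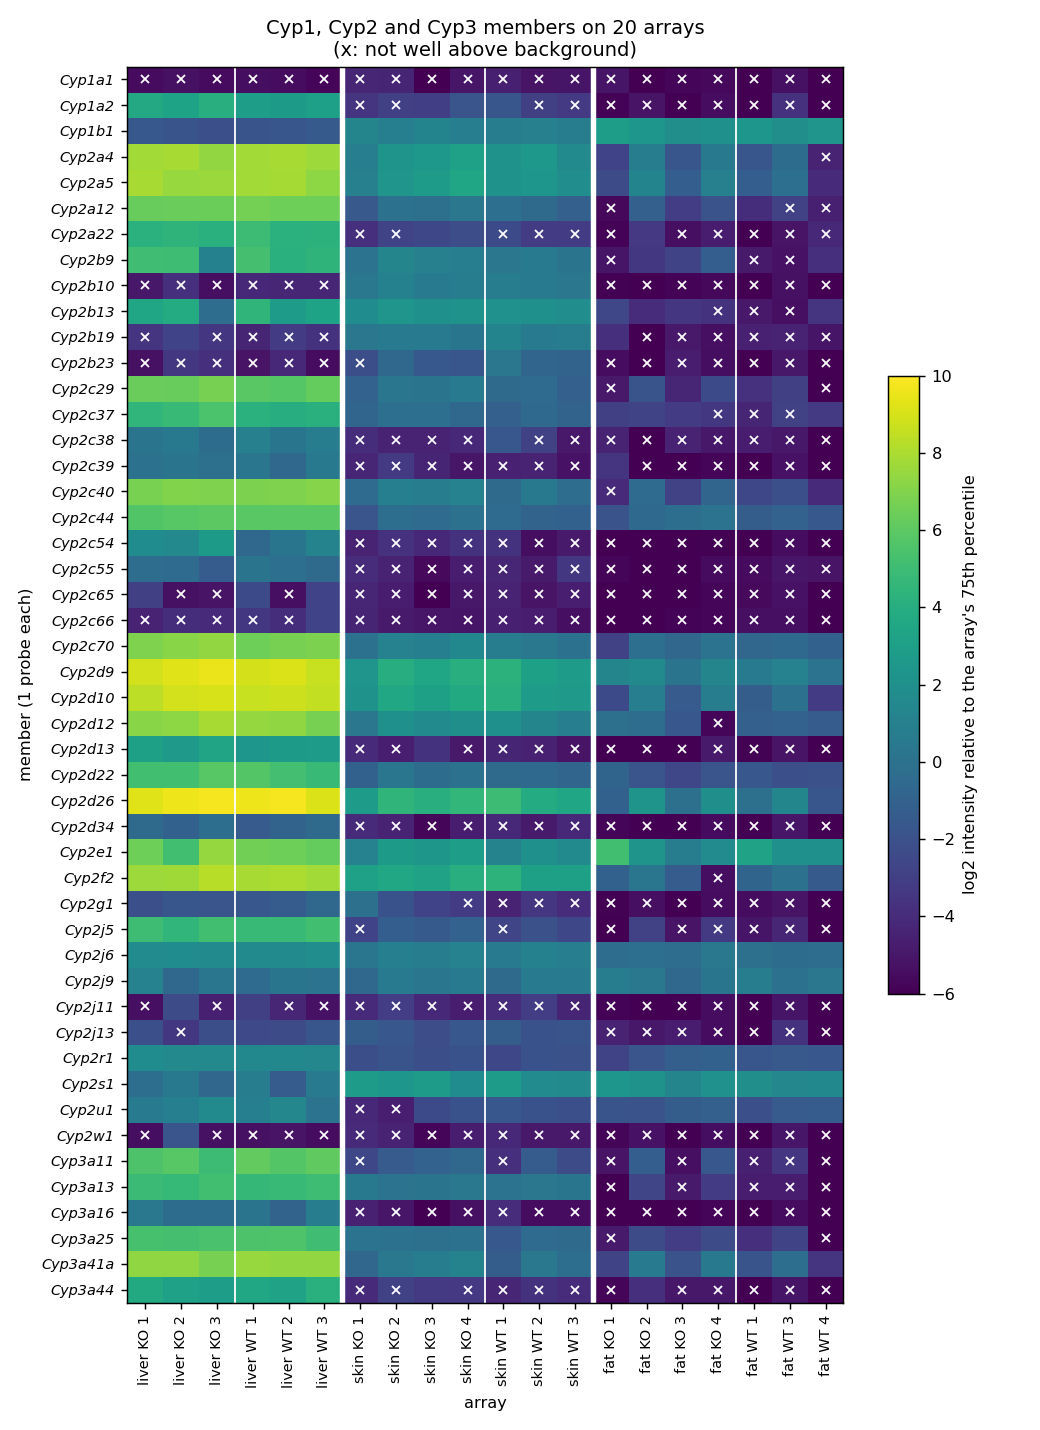
Heat map of the 48 members (rows, 1 probe each) on 20 arrays (columns, grouped by tissue with KO left of WT); colour is log2 intensity relative to the array's 75th percentile, and x marks values not well above background. Liver columns hold the fewest crosses and fat columns the most, matching 41, 34 and 25 detected members in liver, skin and fat.

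WT liver was compared with WT skin and WT fat to give the tissue distribution of each member. Between WT liver and WT skin, 40 of 44 members tested passed an adjusted p of 0.05, against a background of 64.3% of all 14822 genes. Of these, 35 were higher in liver (background 34.7%) and 5 were lower in liver (background 29.7%). The median difference was 4.92 over the members and 0.14 over all genes tested, and over the members it was 4.81 with those measured in 1 tissue alone at their lower bound, leaving out *Cyp2c65*, which has none. A member enters a tissue comparison if it is detected in either tissue. For 13 of these 44 members the other tissue had no WT array well above background, so the count describes the members and supports nothing further. Among the 31 measured in both WT tissues, 26 were called higher in liver and 2 lower.

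All tested *Cyp2a*, *Cyp2d* and *Cyp3a* members, and all tested *Cyp2c* members but *Cyp2c65*, were called higher in WT liver than in WT skin. Among called members measured in both tissues, the difference was 5.45 to 5.81 for 5 *Cyp2d* genes, 4.59 to 8.49 for 4 *Cyp3a* genes, 5.48 to 7.09 for 3 *Cyp2a* genes and 3.76 to 7.04 for 6 *Cyp2c* genes. *Cyp3a11*, the main drug-metabolising CYP3A of mouse liver and a PXR target, stood at 6.14, 5.73 and 6.10 in WT livers, against -3.84, -1.36 and -2.30 in WT skin, of which WT 1 was not well above background. Every liver array lay far above every skin array, and the difference of 8.49 ± 1.01 (SE) was the largest among called members measured in both tissues (limma, adjusted p = 1.13e-06). *Cyp1a2*, which oxidises caffeine and arylamines, stood at 2.96, 2.69 and 3.01 in WT livers, against -1.72, -2.95 and -3.28 in WT skin (difference 5.54 ± 0.58, adjusted p = 2.22e-07), where 1 of 3 skin arrays was well above background. *Cyp2a22* was at least 169-fold higher in WT liver than in WT skin, *Cyp3a44* at least 96.0-fold and *Cyp2d13* at least 48.3-fold, where skin was not well above background and the fold is a lower bound. A *Cyp2a4* probe that was not used here is identical to the *Cyp2a5* probe at 35 of 38 aligned bases, so those probes may share signal. The *Cyp2a4* probe used had no alignment of that kind with *Cyp2a5*, but sharing of signal between these related genes was not tested.

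A set of 5 members was lower in WT liver than in WT skin. *Cyp2b19*, the keratinocyte epoxygenase of mouse epidermis, stood at -4.33, -3.19 and -3.64 in WT livers, against 1.25, 0.54 and 0.77 in WT skin. *Cyp2b10*, in liver the classical phenobarbital-induced target of CAR, stood at -4.17, -4.30 and -4.25 in WT livers, against 0.77, 0.66 and 0.36 in WT skin. *Cyp2b23* stood at -5.14, -4.19 and -5.46 in WT livers, against 0.35, -0.76 and -0.89 in WT skin. No WT liver array was well above background for these 3, so WT skin exceeded WT liver at least 18.9-fold for *Cyp2b19*, at least 16.6-fold for *Cyp2b10* and at least 8.12-fold for *Cyp2b23* (adjusted p = 4.64e-08, 4.75e-09 and 1.18e-06 by limma in that order). Among KO livers only KO 2 was above background for *Cyp2b19*, and KO 2 also had the highest keratinocyte marker mean of the 6 livers, at -0.94. *Cyp1b1*, which acts outside the liver on oestradiol and polycyclic hydrocarbons, and *Cyp2s1*, an epithelial P450, were detected in all 3 tissues. *Cyp1b1* stood at -1.87, -1.74 and -1.45 in WT livers, against 0.74, 0.95 and 0.79 in WT skin (difference -2.51 ± 0.23, adjusted p = 5.40e-08). *Cyp2s1* stood at 0.80, -1.35 and 0.60 in WT livers, against 2.83, 1.69 and 1.60 in WT skin (difference -2.02 ± 0.50, adjusted p = 0.00190). Neither gene's groups overlapped, although *Cyp2s1* varied more within liver.

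The remaining 4 members tested did not pass. *Cyp2j9* stood at -0.41, 0.20 and 0.07 in WT livers, against -0.45, 0.54 and 0.57 in WT skin, and its ranges overlapped. *Cyp2j13* and *Cyp2b13* had differences of -0.47 and 1.51, and *Cyp2c65* was not well above background on any WT skin array. The second probe of *Cyp2b13* stood at 4.48, 2.47 and 3.08 in WT livers, against -4.76, -2.72 and -3.64 in WT skin. It was well above background on 1 of 3 WT skin arrays, so the result for *Cyp2b13* depends on the probe. The *Cyp2j* subfamily, epoxygenases of arachidonic acid, was thus not uniform: *Cyp2j5* lay 7.29 higher in WT liver than in WT skin, *Cyp2j6* lay 0.87 higher, and the other tested pair did not pass.

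Between WT liver and WT fat, 40 of 41 members tested passed, against a background of 61.5%, with 38 higher in liver (background 30.1%) and *Cyp1b1* and *Cyp2s1* lower (background 31.4%). For 16 of the 41, no WT fat array was well above background, and these entered through liver, where they are high. Among the 25 measured in both, 22 were called higher in liver and 2 lower. *Cyp3a11* was at least 1068-fold higher in WT liver, *Cyp2j5* at least 501-fold and *Cyp3a13* at least 476-fold. *Cyp2a12* and *Cyp2c29*, well above background on 1 and 2 of 3 WT fat arrays, differed by 10.31 and 10.18. With the authors' value table, which adds fat WT 2, they differed by 9.29 and 8.72. *Cyp1b1* stood at -1.87, -1.74 and -1.45 in WT livers, against 2.42, 1.92 and 2.32 in WT fat 1, 3 and 4 (difference -3.90, adjusted p = 2.90e-10). *Cyp2s1* differed by -1.60 (adjusted p = 0.0105), and without liver WT 2 it differed by -0.92 with an adjusted p of 0.0820. *Cyp2e1*, the ethanol- and acetone-inducible P450, stood at 6.59, 6.47 and 6.20 in WT livers, against 3.20, 2.01 and 2.03 in WT fat, 16.1-fold higher in liver (adjusted p = 3.98e-04).

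Between WT skin and WT fat, 25 of 34 members tested passed (background 57.5%), 24 of them higher in skin (background 26.6%) and 1 lower (background 30.9%). For 9 of the 34 no WT fat array was well above background. *Cyp2g1*, called higher in skin, was not well above background on any WT array of either tissue, so no size is given for it. With the authors' value table, which adds fat WT 2, *Cyp2g1* did not pass (adjusted p = 0.286 by limma). Among the 25 measured in both, 16 were called higher in skin and 1 lower. All 5 *Cyp2b* members were called higher in WT skin than in WT fat, *Cyp2b9* by 5.00 and *Cyp2b13* by 6.59, each with 1 of 3 WT fat arrays well above background, and the others at least 30.2-fold (*Cyp2b19*), 25.4-fold (*Cyp2b10*) and 12.4-fold (*Cyp2b23*). *Cyp2b13* stood at 2.11, 2.05 and 1.84 in WT skin, against -4.89, -5.36 and -3.52 in WT fat. The exception was *Cyp1b1*, lower in WT skin by 1.39 (adjusted p = 1.03e-04), which orders its WT levels as fat, skin and liver with each neighbouring pair past the test. *Cyp2e1* differed between WT skin and WT fat by -0.81, which did not pass (adjusted p = 0.411), and fat WT 1 at 3.20 lay above the other fat arrays at 2.01 and 2.03. *Cyp1b1* and *Cyp2s1* each have a second probe that was not well above background on any of the 20 arrays. With the mean of both probes, the skin and fat difference of *Cyp1b1* was -0.12 (adjusted p = 0.673) and the liver and fat difference of *Cyp2s1* was -0.12 (adjusted p = 0.765), both by limma. Of the second *Cyp2b* probes, that of *Cyp2b10* was well above background on 3 of 3 WT skin arrays. Those of *Cyp2b19* and *Cyp2b13* were so on 1 of 3, and that of *Cyp2b9* on 0 of 3. None was well above background on any of the 3 WT fat arrays.

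Hepatocyte markers moved with the same tissues, and their part in these differences was not tested. All 12 were higher in WT liver than in WT skin, with a median difference of 5.50, and all 12 were higher than in WT fat, with a median of 9.52. Between WT skin and WT fat all 11 tested were higher in skin, with a median of 3.97. Their mean log2 level lay between 7.71 and 8.21 on liver arrays, 1.59 and 3.15 on skin arrays and -3.40 and 0.89 on fat arrays of both genotypes. Among the *Cyp2b* genes, by the probes used, only *Cyp2b9* was called higher in liver than in skin, whereas *Cyp2b10*, *Cyp2b19* and *Cyp2b23* had the opposite sign to those markers. On slides 3 and 4, which each held WT arrays of all 3 tissues, all 40, 40 and 25 called members kept their sign within each slide. These arrays are among those that gave the calls, and where groups do not overlap the sign cannot change. The signs are therefore a description and no separate check on slides.

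Genes next to each other on chromosome 7 fell on opposite sides of the liver and skin comparison. By the probe positions in the file headers' build (mm9), 12 members lie between 26587504 and 27918629 on this chromosome, a span of 1.33 Mb that holds the *Cyp2a*, *Cyp2b*, *Cyp2f*, *Cyp2g* and *Cyp2s* genes measured. Of these, 7 were higher in WT liver, 4 were higher in WT skin and *Cyp2b13* did not pass by the probe used. The skin-high genes were not contiguous: in order along the chromosome, *Cyp2s1* and *Cyp2b10* were followed by *Cyp2b13*, *Cyp2b9* and *Cyp2a4*, then by *Cyp2b23* and *Cyp2b19*, then by *Cyp2g1*, *Cyp2a5*, *Cyp2a22*, *Cyp2a12* and *Cyp2f2*. Within *Cyp2b*, *Cyp2b9*, which in mouse liver is higher in females, was higher in WT liver by 4.22, while *Cyp2b10* on one side and *Cyp2b23* on the other were higher in WT skin by the lower bounds given above.

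**Figure D2:**
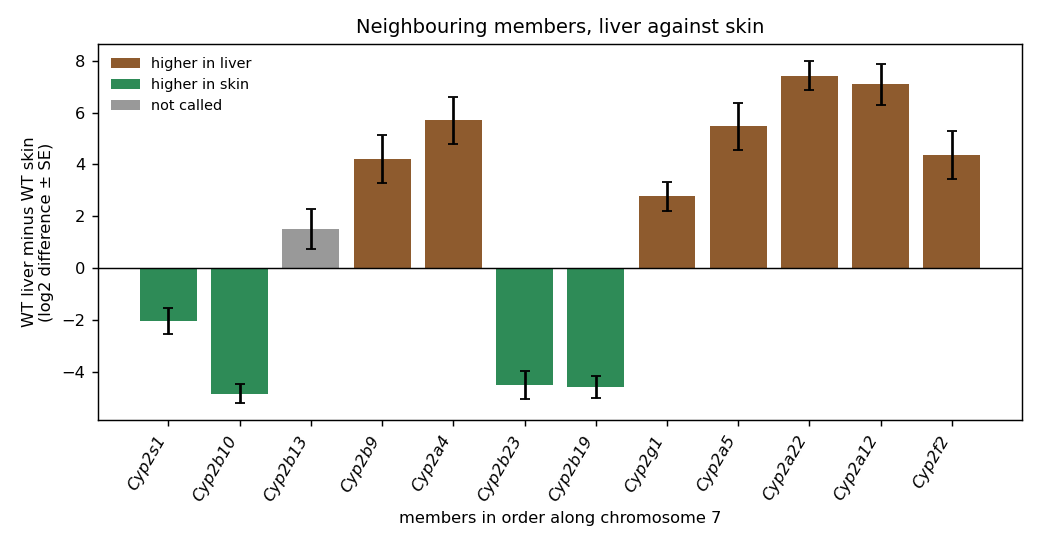
WT liver minus WT skin (log2 difference ± SE, 3 arrays each) for 12 members in their order along chromosome 7, coloured by whether the member was called higher in liver, called higher in skin or not called. *Cyp2s1*, *Cyp2b10*, *Cyp2b23* and *Cyp2b19* lie below 0 and are separated by members that lie above 0, such as *Cyp2b9* at 4.22 and *Cyp2a4* at 5.69; bars of *Cyp2b10*, *Cyp2b23*, *Cyp2b19*, *Cyp2g1* and *Cyp2a22* are fitted values against a tissue not well above background and are no exact sizes.

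The sequence before the start of these genes is shown to compare skin-high and liver-high neighbours. RefSeq (GRCm38.p6) gave promoter windows of 250 bases before to 50 bases after the start for 40 of the 48 members. No window was matched for *Cyp2c44*, *Cyp2c54*, *Cyp2d12*, *Cyp2d13*, *Cyp2d22*, *Cyp2d34*, *Cyp2g1* and *Cyp2u1*. The core letters TTGCNNAA, read on both strands and known from C/EBP sites, occurred in 11 of these 40 members and in 10.8% of all 32851 windows. A member was counted once if any of its windows held the letters, so the member counts and the percentages have unlike units. The letters CAAAGTCCA, known from HNF4 sites, occurred in 6 of 40 members and in 0.475% of all windows. The 200 bases before the start follow, 5′ to 3′ on the gene's strand, with the matched letters in capitals.
*Cyp2b19*, chr7:26756942-26757141, plus strand: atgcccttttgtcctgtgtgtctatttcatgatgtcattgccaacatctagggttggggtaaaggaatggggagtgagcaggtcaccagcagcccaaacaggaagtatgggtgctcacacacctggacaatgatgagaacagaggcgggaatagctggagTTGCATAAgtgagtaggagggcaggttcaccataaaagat
*Cyp2b10*, chr7:25897458-25897657, plus strand: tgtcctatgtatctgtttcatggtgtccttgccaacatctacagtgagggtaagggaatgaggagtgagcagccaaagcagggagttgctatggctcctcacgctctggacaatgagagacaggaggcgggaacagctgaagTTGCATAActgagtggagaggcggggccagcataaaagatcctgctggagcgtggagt
*Cyp2b9*, chr7:26173209-26173408, plus strand: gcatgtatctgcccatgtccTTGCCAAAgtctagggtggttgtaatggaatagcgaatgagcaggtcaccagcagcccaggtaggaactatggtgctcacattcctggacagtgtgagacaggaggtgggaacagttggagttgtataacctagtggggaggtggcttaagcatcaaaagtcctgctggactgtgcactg
*Cyp2a5*, chr7:26835139-26835338, plus strand: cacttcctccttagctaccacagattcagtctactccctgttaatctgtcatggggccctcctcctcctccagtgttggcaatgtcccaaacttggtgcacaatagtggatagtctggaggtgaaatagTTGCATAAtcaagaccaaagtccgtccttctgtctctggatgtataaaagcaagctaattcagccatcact
*Cyp2c40*, chr19:39812815-39813014, minus strand: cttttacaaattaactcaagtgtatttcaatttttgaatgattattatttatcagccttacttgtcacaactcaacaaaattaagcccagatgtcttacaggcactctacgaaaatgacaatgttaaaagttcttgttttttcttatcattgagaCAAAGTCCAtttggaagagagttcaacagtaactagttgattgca
*Cyp3a11*, chr5:145879855-145880054, minus strand: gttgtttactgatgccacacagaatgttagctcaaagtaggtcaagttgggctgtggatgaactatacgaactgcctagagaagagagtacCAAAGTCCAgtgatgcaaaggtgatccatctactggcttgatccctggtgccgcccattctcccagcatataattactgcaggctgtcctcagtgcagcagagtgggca

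All 5 *Cyp2b* genes had a window with TTGCNNAA, whichever tissue was higher. The form TTGCATAA began 40 bases before the start in *Cyp2b19*, 58 in *Cyp2b10* and 85 in *Cyp2b23*, all higher in WT skin, and 70 in *Cyp2a4* and 71 in *Cyp2a5*, both higher in WT liver. In *Cyp2b9* and *Cyp2b13* the match was TTGCCAAA, 180 bases before the start. CAAAGTCCA occurred in *Cyp2c40*, *Cyp2c65*, *Cyp2c70*, *Cyp3a11*, *Cyp3a16* and *Cyp3a41a*, and each of these except *Cyp2c65* was called higher in WT liver than in WT skin. That is near the share over all members tested, 35 of 44 (79.5%), and shows no link between the letters and the tissue. GCGTG, the core of aryl hydrocarbon receptor sites, occurred in 7 of 40 members, *Cyp1a1* and *Cyp1b1* among them, against 32.4% of all windows. TGANTCA, an AP-1 form, occurred in 2 of 40 members, *Cyp2c70* and *Cyp3a13*, against 7.81% of all windows. No matches of different motifs overlapped, and a match is a description of letters, not of binding.

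The liver comparison of JNK1 KO with WT mice asked whether P450 transcripts differed under long feeding with the high fat diet. None of the 41 members tested passed an adjusted p of 0.05 in KO against WT liver (limma; background 0.0226% of 13302 genes). The targeted gene *Mapk8*, with a difference of -2.37, did not pass there either (adjusted p = 0.216 by limma). The absence of calls in liver therefore does not show that the members were unchanged. At an unadjusted p below 0.05 there were 6 members (background 6.06%), 5 of them higher in KO (background 2.41%). In 9 members the KO and WT arrays did not overlap (background 11%), 6 of them higher (background 4.8%) and 3 lower (background 6.22%). The median difference was -0.0083 over the members and -0.0048 over all genes. Over all 6 livers, 20 of the 41 members spanned less than 1 on the log2 scale, the median range was 1.06, and the widest ranges were 4.24 for *Cyp2b9* and 4.75 for *Cyp2b13*.

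The smallest p belonged to a *Cyp2c* gene, a subfamily whose mouse members oxidise arachidonic acid and drugs. *Cyp2c54* stood at 1.78, 1.54 and 2.73 in KO livers, against -0.56, 0.25 and 1.14 in WT livers, so the groups did not overlap. The difference was 1.74 ± 0.48 (SE, n = 3 each; adjusted p = 0.572). Related *Cyp2c* transcripts can share sequence with a probe, and the probe of *Cyp2c54* and the second probe of *Cyp2c40* align over 46 bases, of which 38 are identical. Both are shown 5′ to 3′ with the aligned bases that differ in capitals and with mm9 positions, whose spans include an intron.
*Cyp2c54*, chr19:40122119-40144700: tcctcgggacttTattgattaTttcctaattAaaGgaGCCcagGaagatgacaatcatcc
*Cyp2c40*, chr19:39861388-39877026: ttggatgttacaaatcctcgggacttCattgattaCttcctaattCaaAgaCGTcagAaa

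That second *Cyp2c40* probe differed by 0.01 between KO and WT livers, and the probe used for *Cyp2c40* by -0.07. Other *Cyp2c* members separated with smaller differences. *Cyp2c37* stood at 4.50, 4.82 and 5.44 in KO livers, against 4.24, 3.95 and 4.17 in WT livers (difference 0.80 ± 0.25, adjusted p = 0.651). Its second probe stood at 5.21, 4.87 and 5.90 in KO livers, against 4.73, 4.02 and 4.82 in WT livers, a difference of 0.80, again without overlap. *Cyp2c70*, which makes the muricholic acids typical of mouse bile, stood at 6.91, 7.16 and 7.43 in KO livers, against 6.46, 6.72 and 6.84 in WT livers (difference 0.49 ± 0.19, adjusted p = 0.800). *Cyp2c29*, a CAR-responsive gene of the cells around the central vein, stood at 6.36, 6.29 and 6.75 in KO livers, against 5.92, 5.77 and 6.21 in WT livers (difference 0.50 ± 0.19, adjusted p = 0.800). The *Cyp2c* subfamily had no common direction, with 5 of 10 members positive and *Cyp2c65*, well above background on 1 of 3 KO and 2 of 3 WT livers, at -0.97.

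*Cyp1a2* had the smallest p outside *Cyp2c*. It stood at 3.63, 3.30 and 4.07 in KO livers, against 2.96, 2.69 and 3.01 in WT livers (difference 0.78 ± 0.22, adjusted p = 0.605). Its second probe, at another position of the transcript, stood at 2.59, 2.07 and 2.89 in KO livers, against 1.70, 1.49 and 1.82 in WT livers, a difference of 0.85, and again did not overlap. *Cyp1b1* differed by -0.18, with -1.62, -1.84 and -2.11 in KO livers against -1.87, -1.74 and -1.45 in WT livers.

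Members known for drug and ethanol metabolism showed mixed values. *Cyp3a11* stood at 5.56, 5.83 and 4.97 in KO livers, against 6.14, 5.73 and 6.10 in WT livers (difference -0.54 ± 0.25, adjusted p = 0.873), with KO 2 inside the WT range. The *Cyp3a* subfamily had 5 of 6 negative differences and a median of -0.20. All 7 *Cyp2d* differences were positive but small, from 0.02 to 0.39. *Cyp2e1* stood at 6.47, 5.16 and 7.49 in KO livers, against 6.59, 6.47 and 6.20 in WT livers, so KO 2 was lower and KO 3 higher than every WT array. *Cyp2g1*, in mouse best known from the olfactory mucosa, stood at -2.10, -1.74 and -1.77 in KO livers, against -1.64, -1.34 and -0.58 in WT livers (difference -0.69 ± 0.28, adjusted p = 0.812). *Cyp2f2*, which activates naphthalene and marks the cells around the portal vein, stood at 7.67, 7.69 and 8.29 in KO livers, against 7.90, 8.01 and 7.75 in WT livers.

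KO 3 stood apart for the female-predominant *Cyp2b* pair. *Cyp2b9* stood at 5.11, 5.04 and 1.01 in KO livers, against 5.25, 4.13 and 4.38 in WT livers. *Cyp2b13* stood at 3.49, 3.84 and -0.26 in KO livers, against 4.49, 2.79 and 3.25 in WT livers. The second probe of each gene was likewise lowest on KO 3, at -2.20 for *Cyp2b9* and -1.91 for *Cyp2b13*, against 1.08 or more on the other KO livers. The differences were -0.87 for *Cyp2b9* and -1.15 for *Cyp2b13* (adjusted p = 1 for each by limma), and 0.49 and 0.16 without KO 3. *Cyp2a4* and *Cyp3a41a*, also known to be female-predominant in mouse liver, lay closer together. *Cyp2a4* stood at 7.76, 7.93 and 7.41 in KO livers, against 7.80, 7.92 and 7.65 in WT livers. *Cyp3a41a* stood at 7.37, 7.32 and 6.70 in KO livers, against 7.56, 7.42 and 7.39 in WT livers. KO 3 was again the lowest of the 6 livers for each. The 2 other *Cyp2a4* probes stood at 6.25 and 5.85 on KO 3, against 6.58 or more on every other liver. *Cyp2d9*, the male-predominant steroid hydroxylase, differed by 0.28 and was highest on KO 3, at 9.53. That place was not particular to *Cyp2d9*. KO 3 was also the highest of the 6 livers for other members, *Cyp1a2*, *Cyp2e1* and *Cyp2f2* among them, at 4.07, 7.49 and 8.29.

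**Figure D3:**
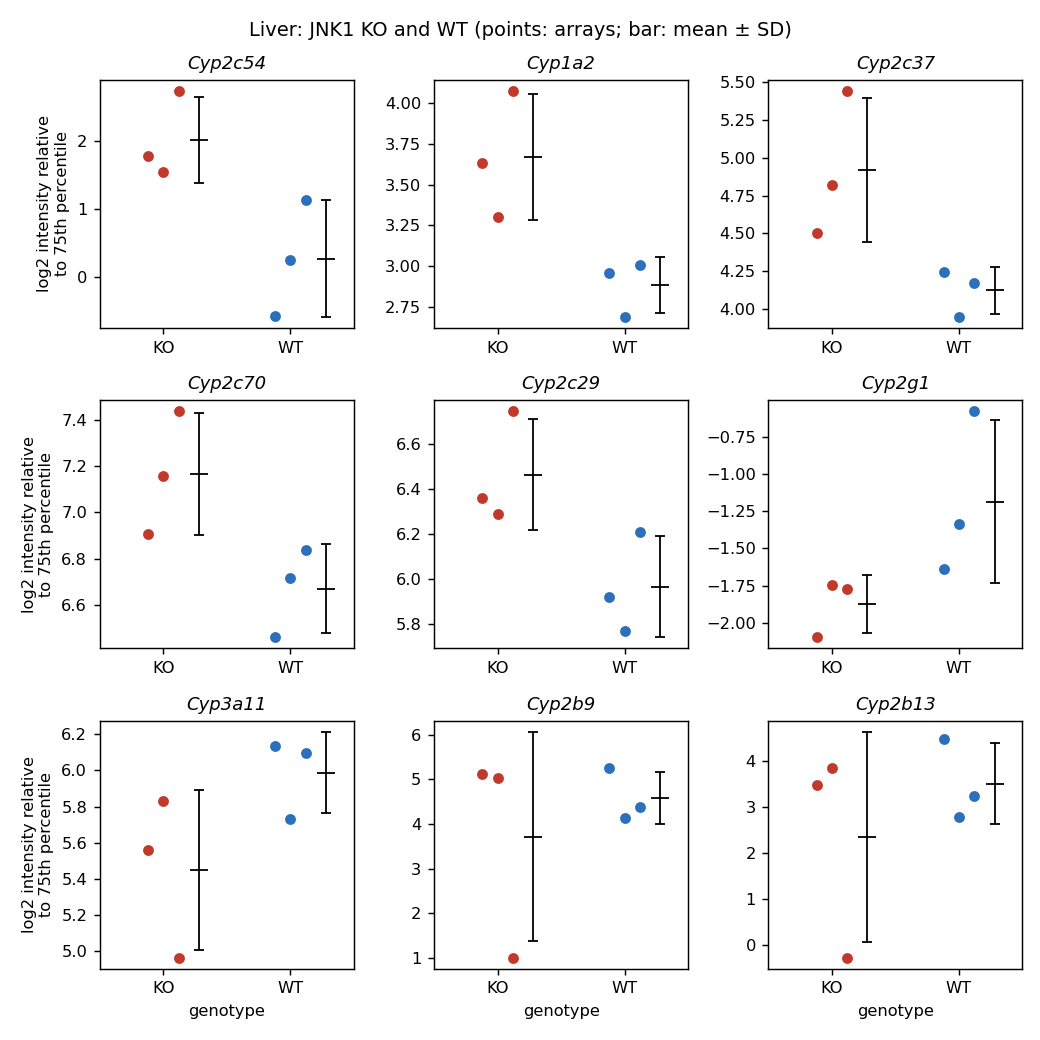
Panels for 9 members in liver: points are arrays of KO (left) and WT (right) mice, bars give the mean ± SD (n = 3 each), and the y axis is log2 intensity relative to the array's 75th percentile. *Cyp2c54*, *Cyp1a2*, *Cyp2c37*, *Cyp2c70* and *Cyp2c29* do not overlap between genotypes, and *Cyp2b9* and *Cyp2b13* are low on 1 KO array.

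Genes that supply or regulate P450s were read beside them in liver. None of 17 electron donors, haem synthesis genes and epoxide hydrolases and none of 24 receptors and transcription factors tested passed in KO against WT liver. The smallest p values belonged to clock-output genes: *Dbp* stood at 4.78, 5.54 and 5.63 in KO livers, against 7.45, 7.39 and 7.24 in WT livers (difference -2.04, adjusted p = 0.112). *Tef* differed by -1.16, its opposing factor *Nfil3* by 1.07 and *Ppara* by -0.68 (adjusted p = 0.327, 0.359 and 0.531 by limma in that order), and the arrays of each did not overlap. In mouse liver, Dbp and Tef are known to act on P450 genes such as *Cyp2a5*, which differed by 0.06, and on *Por* and *Alas1*, which differed by -0.75 and -0.64 (adjusted p = 0.871 and 0.885 by limma). The labels give no hour of tissue collection, and its part in these values was not tested. Liver arrays KO 1, KO 2 and WT 3 held more keratinocyte transcripts than the others, with list means up to -0.94 in KO and -1.32 in WT livers. Leaving out those 3 arrays leaves KO 3, the highest KO array for *Cyp2c54*, alone against WT 1 and WT 2, and that single array lay 2.88 above their mean. Hepatocyte marker means were 7.76, 7.73 and 8.21 in KO livers, against 7.76, 7.88 and 7.71 in WT livers. KO 3, with the highest, was also the highest liver array for *Cyp2c54*, *Cyp2c37*, *Cyp2c70*, *Cyp2c29* and *Cyp1a2*, but the lowest for *Cyp2b9* and *Cyp2b13*. The part of these markers was not tested.

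The series title names oxidative damage of skin in the knockout, and the skin arrays compared KO with WT mice. None of the 34 members tested passed (background 0.0148% of 13497 genes). At an unadjusted p below 0.05 there were 3 members (background 7.88%), and 2 members did not overlap between genotypes (background 11.5%), both higher in KO (background 3.35%). The difference was above 0 for 26 of 34 members, against 39.4% of all genes. The median difference was 0.15 over the members and -0.10 over all genes.

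*Cyp2g1* had the smallest p. It stood at -0.12, -1.95, -2.80 and -3.20 in KO skin, against -4.40, -3.48 and -3.97 in WT skin. The probe cleared background on 3 of 4 KO arrays and on 0 of 3 WT arrays, so it was tested through the KO arrays alone. KO skin exceeded WT skin at least 1.92-fold, and the fitted difference, 1.93 ± 0.67 (adjusted p = 0.555), rests on WT values not above background. Without KO 1 and WT 1, the skin arrays with the fewest probes above background, the fitted difference was 1.08. Its second probe was not above background in skin. Hair follicle markers moved with genotype in the same samples: their mean level was 4.95, 3.71, 4.88 and 2.86 in KO skin, against 0.38, 1.84 and 0.73 in WT skin. All 11 tested follicle markers had positive differences, with a median of 3.74 and none past the test, and their part in the *Cyp2g1* values was not tested. *Cyp2g1* and the follicle mean were both highest on KO 1 and lowest among KO arrays on KO 4, but KO 2 and KO 3 came in opposite order.

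The skin-high *Cyp2b* genes had no common direction. *Cyp2b19* stood at 0.35, 0.62, 0.61 and 0.20 in KO skin, against 1.25, 0.54 and 0.77 in WT skin (difference -0.41 ± 0.23, adjusted p = 0.555). *Cyp2b23* stood at -2.13, -0.60, -1.59 and -1.70 in KO skin, against 0.35, -0.76 and -0.89 in WT skin (difference -1.07 ± 0.42, adjusted p = 0.555), with KO 2 inside the WT range. *Cyp2b10* stood at 0.40, 1.02, 0.60 and 0.81 in KO skin, against 0.77, 0.66 and 0.36 in WT skin, and differed by 0.11. All 3 genes overlapped between genotypes. Keratinocyte marker means ran from 6.49 to 7.39 in KO skin and from 6.45 to 6.66 in WT skin. *Cyp1b1* differed by 0.23 and *Cyp2s1* by 0.42, and both overlapped.

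All 4 *Cyp3a* members tested had positive differences in KO skin, none of them past the test. *Cyp3a25* stood at 0.12, -0.06, -0.10 and -0.04 in KO skin, against -1.58, -0.41 and -0.48 in WT skin (difference 0.80 ± 0.30, adjusted p = 0.555), without overlap, and its second probe differed by 0.89. *Cyp3a11* differed by 1.11, *Cyp3a41a* by 0.78 and *Cyp3a13* by 0.07. *Cyp2u1*, a fatty acid hydroxylase, stood at -4.17, -4.65, -2.39 and -1.96 in KO skin, against -1.66, -1.98 and -2.11 in WT skin (difference -1.38 ± 0.63, adjusted p = 0.555), with KO 1 and KO 2 low and not well above background, and the other KO arrays near the WT range. *Cyp2j5* differed by 0.79 and *Cyp2e1* by 0.70, with 1.11, 2.70, 2.48 and 2.92 for *Cyp2e1* in KO skin against 1.14, 2.05 and 1.63 in WT skin. Of these members only *Cyp3a25* was free of overlap. Hepatocyte markers in skin averaged 1.59, 2.84, 2.60 and 3.15 on KO arrays, against 2.66, 2.35 and 1.78 on WT arrays. The KO array with the lowest of these means, KO 1, was also the lowest of all 7 skin arrays for 18 of 34 members, *Cyp2a5* and *Cyp2d26* among them, and the part of these transcripts was not tested. KO 1 also had the fewest probes well above background of the skin arrays, at 38.9%. No share over all genes is given beside the count, so it describes these members only.

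**Figure D4:**
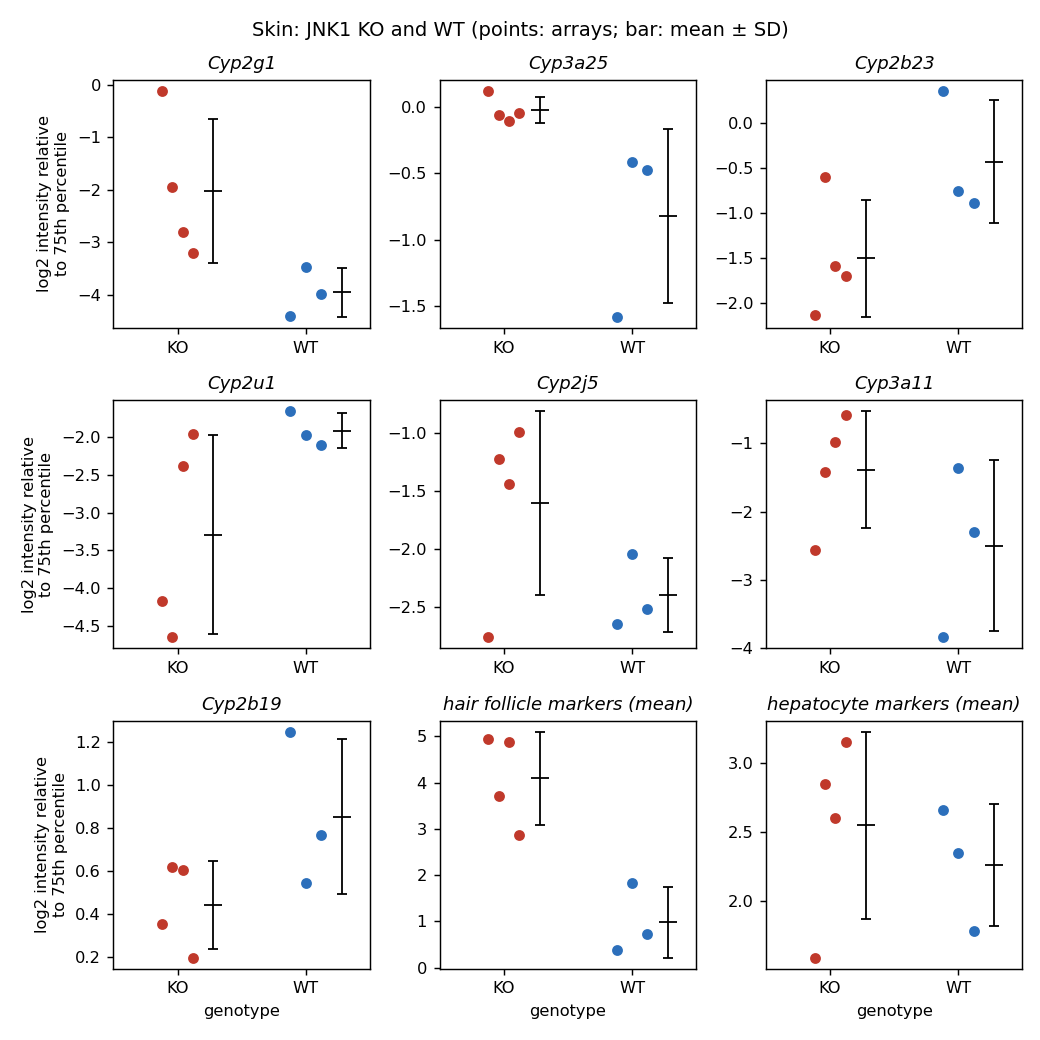
Panels for 7 members and 2 marker lists in skin: points are KO (left, n = 4) and WT (right, n = 3) arrays, bars give the mean ± SD, and the y axis is log2 intensity relative to the array's 75th percentile (for lists, the mean over markers). *Cyp2g1* and *Cyp3a25* do not overlap between genotypes, and the hair follicle marker mean is higher on every KO array than on every WT array.

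In fat, a group of members moved together from array to array, and the genotypes overlapped. None of the 25 members tested passed in KO against WT fat (background 0.0131% of 15246 genes), 1 had an unadjusted p below 0.05 (background 7.93%) and none was free of overlap (background 9.53%). The difference was above 0 for 20 of 25 members, against 62.3% of all genes, with a median of 0.50 over the members and 0.08 over all genes. With the authors' value table, which adds fat WT 2, 18 of the 25 were above 0 and the median was 0.14. *Cyp2a5*, which oxidises coumarin and nicotine, stood at -2.27, 1.22, -1.23 and 0.96 in KO fat, against -1.25, -0.16 and -4.12 in WT fat 1, 3 and 4. *Cyp2d26* stood at -1.04, 2.30, -0.07 and 1.94 in KO fat, against -0.09, 1.35 and -1.70 in WT fat. *Cyp2c29* stood at -4.90, -1.86, -4.30 and -2.41 in KO fat, against -3.73, -2.98 and -5.94 in WT fat. The same arrays were high and low for all 3 genes.

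Hepatocyte markers followed that order. Their mean was -2.14, 0.89, -1.04 and 0.41 in KO fat, against -1.15, -0.12 and -3.40 in WT fat, with 8 to 12 of 12 markers well above background on each array. KO 2 and KO 4, the 2 arrays with the highest marker mean, were also the 2 highest for 10 of the 25 members, and WT 4, with the lowest, was the lowest for 8. No share over all genes is given beside these counts, so they describe these members only. The markers themselves had a median KO minus WT difference of 1.09, with 11 of 11 positive and none past the test, and their part in the members' differences was not tested. *Cyp1b1* and *Cyp2e1* did not follow that order. *Cyp1b1* stood at 2.88, 2.41, 1.91 and 2.02 in KO fat, against 2.42, 1.92 and 2.32 in WT fat. *Cyp2e1* stood at 5.15, 2.28, 0.80 and 1.71 in KO fat, against 3.20, 2.01 and 2.03 in WT fat. *Cyp1b1* varied little and *Cyp2e1*, although higher in liver than in fat, was highest on KO 1, where hepatocyte markers were low.

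**Figure D5:**
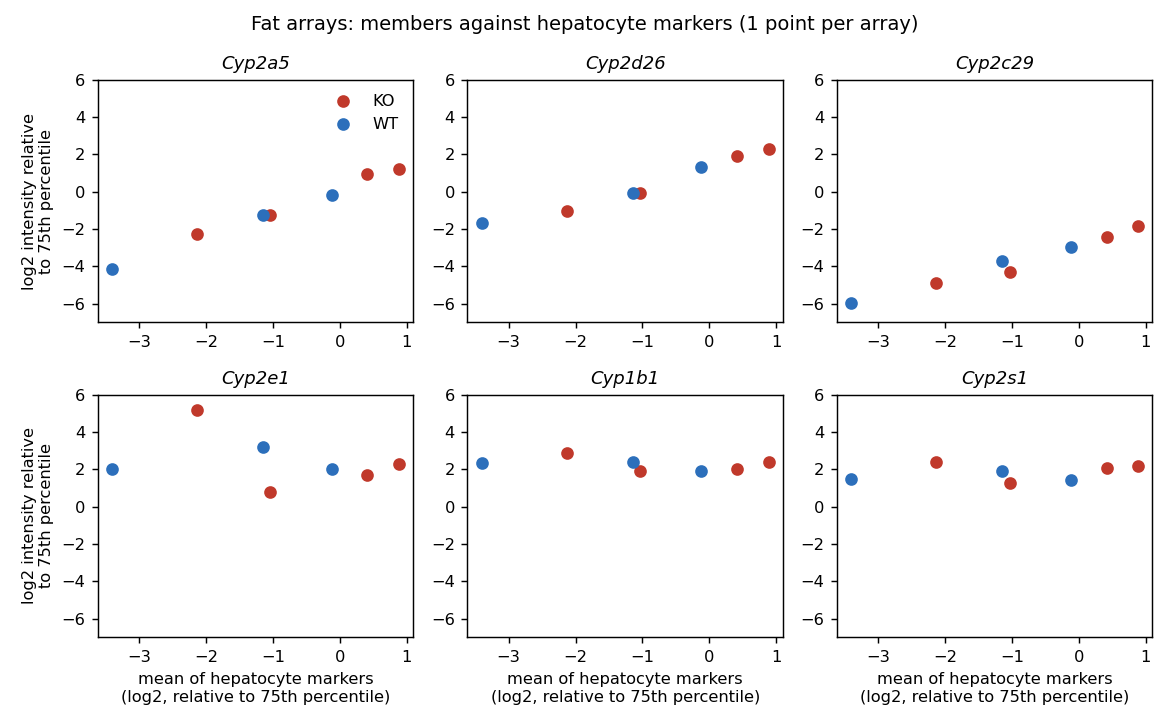
Level of 6 members (y axis) against the mean of 12 hepatocyte markers (x axis), both log2 relative to the array's 75th percentile, 1 point per fat array (4 KO and 3 WT). *Cyp2a5*, *Cyp2d26* and *Cyp2c29* rise along the axis in both genotypes, whereas *Cyp2e1*, *Cyp1b1* and *Cyp2s1* do not.

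The smallest p in fat was that of *Cyp2b13*, at -2.60, -3.97, -3.50 and -3.63 in KO fat, against -4.89, -5.36 and -3.52 in WT fat (difference 1.16 ± 0.48, adjusted p = 0.613). With the authors' value table, which adds fat WT 2, the difference was 0.52. For *Cyp2b13* and *Cyp2b9*, 3 of 4 KO and 1 of 3 WT fat arrays were well above background. *Cyp2b9* differed by 1.52 on the scanner arrays and by 0.53 in the value table, *Cyp2a5* by 1.51 and 0.60, *Cyp2c44* by 0.66 and 0.31, *Cyp2d9* by 0.50 and 0.18 and *Cyp2s1* by 0.36 and 0.38. In the value table, on its own log2 scale, *Cyp2a5* stood at 6.50, 9.85, 7.37 and 9.37 in KO fat, against 7.47, 9.53, 8.44 and 5.25 in WT fat 1 to 4. *Cyp1b1* stood at 11.05, 10.63, 10.08 and 10.14 in KO fat, against 10.53, 10.67, 10.13 and 10.45 in WT fat in that table. The added WT 2 column lay within the range of the other fat columns for both. On fat KO 4, *Cyp2d12* and *Cyp2f2* stood at -5.80 and -5.40 and were not well above background, against -1.66 or more on each other fat array. Fat KO 4 also had the most probes with flagged spots, 241 against 24 or fewer on every other array. Flagged spots were left out, and the part of array quality in these low values was not tested.

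The KO effects were set against each other between tissues in 1 fit of all 6 groups. No member passed for skin minus liver (44 tested, background 0.202%), skin minus fat (34 tested, background 0.423%) or liver minus fat (41 tested, background 0.0564%). At an unadjusted p below 0.05 there were 2, 1 and 3 members, against backgrounds of 8.06%, 11.9% and 4.71%. The smallest p belonged to *Cyp2g1* in skin minus liver (adjusted p = 0.309 by limma), and no size is given because no WT skin array was well above background. The same holds for *Cyp2c54* in liver minus fat (adjusted p = 0.856 by limma), which was not well above background on any fat array. These comparisons share arrays with those within each tissue.

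Slides were looked at for the genotype comparisons. In liver and in skin each slide held arrays of 1 genotype, so slide and genotype cannot be told apart there, with or without a slide block. With slide as a random block, none of the 34 members passed in skin, and no such estimate was obtained in liver, where only KO 1 and KO 3 shared a slide. In fat, slide 3 held KO 2 and WT 4, and 19 of 25 members had the same sign within it as over all arrays, with a median of 1.04. Those were also the fat arrays with the highest and the lowest hepatocyte marker mean.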

How the data were processed

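Cy3-labelled cRNA from 0.2 ug of total RNA was hybridised to 1-colour Agilent mouse arrays, and Agilent Feature Extraction 10.7.3.1 made the spot intensity values, background-subtracted and detrended within the array, per the file headers. The deposited value table holds the authors' log2 values of the same 21 arrays. Its normalization and centring are not given in the sources used here. Probe positions are on mm9, per the file headers.

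Here, log2 of the processed intensity minus the array's 75th percentile was used, with control and flagged spots left out and spots of a probe averaged. Each gene name was read from its probe with the highest mean over 20 arrays. A gene was tested where 3 or more arrays of a tissue compared had that probe well above background. Differences were tested with limma 3.58.1 in R 4.3.3, with Benjamini-Hochberg adjustment over all genes tested and a threshold of 0.05. KO was compared with WT in 1 fit per tissue, and tissues in 1 fit of 6 groups. The scripts were tested on simulated data, in which 200 genes per tissue were changed, equally many by 1 and by 2 on the log2 scale. Those called were 23 and 68 in skin, 37 and 78 in liver and 41 and 83 in fat. Changes of such size can therefore be missed in the genotype comparisons. Where a probe was not well above background on any array of a group, a lower bound was computed against that group's lowest measurable signal. It compares the brighter group's mean of normalized log2 values with the dimmer group's mean of, per array, the higher of the lowest signal among probes well above background and the probe's own. Precision is limited by 3 or 4 arrays per group. Named were the 6 members with the smallest p per tissue, the 5 largest called tissue differences each way, members detected in skin or fat, and members of known role. *Cyp2b9*, *Cyp2b13* and *Cyp3a11* were followed in liver after their values were seen. The members and gene lists were chosen with earlier results of these data known. Promoter windows came from RefSeq, GRCm38.p6.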

Additional observations from a re-analysis of the deposited data

Results flagged for a closer look

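*Cyp2j6* stood at 0.42 on fat KO 4, while the other KO fat arrays lay between -0.26 and -0.18. The gap to the nearest array was 0.875 of the group's range, above Dixon's 95% critical value for 4 arrays. It was the only such value among 59 groups of 4 arrays examined, and chance gives about 1 in 20.

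The scanner file of fat WT 2, which was left out of the comparisons, held *Cyp2b19* at 0.13, well above background, while the other WT fat arrays lay between -5.07 and -4.38.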

How the results depend on the processing

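No member was called in KO against WT in skin, liver or fat, or in the 3 differences of KO effects, under every alternative run: normexp background with an offset of 50, quantile normalization, no filter or a stricter filter on dim probes, the mean of all probes, a replicate block, slide as a block, the authors' value table, 1 fit of 6 groups for the genotype comparisons, the fits without skin KO 1 and WT 1 or without liver KO 1, KO 2 and WT 3 (which leaves 1 KO array, assumed to vary like the others), and each array left out. The counts called were 40 to 41 for WT liver against WT skin, 39 to 42 for WT liver against WT fat and 22 to 36 for WT skin against WT fat, where 36 came without a filter, with 48 members tested. With each array left out they were 40 to 41, 39 to 40 and 23 to 26. Slide as a block could not be fitted for liver KO against WT. Same-numbered KO and WT arrays of a tissue correlated at -0.23 to 0.19 after removing group means. Same-numbered arrays of 1 genotype correlated at -0.087 to 0.16 between tissues. With 3 or 4 arrays per group, these values cannot decide whether replicate numbers pair samples. The fit of 6 groups treats arrays of different tissues as independent. The replicate block gave 0 calls for each genotype comparison and 40, 40 and 23 for the tissue comparisons, in the order above. Over the named members, 662 alternative values kept direction and side of the threshold, 4 reversed and 3 lost the call. Without liver KO 3, *Cyp2b9* and *Cyp2b13* in liver were 0.49 and 0.16 (leave-one-out ranges -1.56 to 0.49 and -1.90 to 0.16). With the scanner file of fat WT 2 as deposited, *Cyp2b13* and *Cyp2s1* in fat were -0.27 and -0.055. The lost calls were *Cyp2s1* (liver against fat: -0.12 with the mean of all probes, whose second probe was dim, and -0.92 without liver WT 2) and *Cyp1b1* (skin against fat: -0.12 with the mean of all probes). The KO effect ran from 1.32 to 2.17 for *Cyp2c54* and 0.58 to 0.97 for *Cyp1a2* in liver, besides 2.88 and 1.25 for KO 3 alone against WT 1 and WT 2, and from 0.71 to 2.35 for *Cyp2g1* and -1.86 to -0.20 for *Cyp2u1* in skin. Normexp shrank differences of dim probes: the fitted value of *Cyp2b23* in WT liver against WT skin was -1.61 with it. The causes of the other shifts were not tested, and *Cyp2g1*, *Cyp2b23* and *Cyp2u1* each had a group with arrays not well above background.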
